A study of Mus musculus with 10 samples.

Results

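The genes described here are the nuclear genes of oxidative phosphorylation (OXPHOS), with their chromatin in cultured mouse neural stem and progenitor cells (NSPCs). Members were the protein-coding autosomal genes of the GENCODE M21 annotation of mm10 whose symbols begin with Nduf, Sdha to Sdhd, Uqcr, Cox4 to Cox8 or Atp5, without pseudogenes, and no measured value was used to choose them. There were 94 such genes among 20780 protein-coding autosomal genes. They comprised 34 subunits of complex I and 8 of its assembly factors, 4 subunits of complex II and 4 of its assembly factors, 8 subunits of complex III, 18 genes of complex IV, 16 of complex V, the supercomplex factor Cox7a2l and the complex V factor Atp5s. Ndufa4 and its paralogue Ndufa4l2 were counted with complex IV, of which the Ndufa4 protein is a subunit.

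All cells were primary NSPCs of C57BL/6 mice at postnatal day 5. Activated NSPCs grew in 20 ng/ml each of FGF2 and EGF. Quiescent NSPCs were held in 20 ng/ml FGF2 and 25 ng/ml BMP4 without EGF, for 4 days by the sample labels, whereas the study's methods give a shorter time in this medium before ATAC-seq. Reactivated NSPCs had 4 days of BMP4 and then 9 to 12 days in the activating medium. ATAC-seq, in which the Tn5 transposase cuts accessible DNA, was done on 2 libraries for each of the 3 states, from biologically independent cultures by the study's account. ChIP-seq of H3K4me3, a histone mark of active promoters, was done on 1 quiescent and 1 activated library and has no replicate. These are cells in culture without their niche, and no RNA was analysed here, so accessibility is not a measure of expression.

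The respiratory chain passes electrons from NADH (complex I) or succinate (complex II) through complexes III and IV to oxygen, and complex V uses the proton gradient that results to make ATP. Its subunits are coded by both genomes, and the nuclear ones by genes scattered over the chromosomes, many with CpG-rich promoters and sites for NRF1, GABP and YY1. Quiescent neural stem cells are known for a metabolism that differs from that of cycling progenitors, with glycolysis, fatty acid oxidation and OXPHOS used to different extents, so the question put to these data was whether the promoters of OXPHOS genes differ in accessibility or H3K4me3 between the states.

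The ATAC-seq lists held between 47037 and 60355 peaks in the quiescent and activated libraries, and 106270 and 106830 in the reactivated ones. All 5 NSPC markers examined (Sox2, Nes, Pax6, Fabp7 and Vim) had a promoter peak in all 6 ATAC-seq libraries, whereas none of 3 oligodendrocyte, 4 microglial and 4 endothelial markers did. Among 4 neuronal markers 2 did, Syt1 and Snap25. More of these markers had a peak in both libraries of the reactivated state: 4 of 4 neuronal (2 of 4 in quiescent and in activated NSPCs), 1 of 3 oligodendrocyte (0 and 0), 1 of 4 microglial (0 and 0) and 1 of 4 endothelial markers (0 in quiescent, 1 in activated). The reactivated peak lists were also longer, and the share of all genes with such a peak was 66.4%, against 56.9% in quiescent and 57.3% in activated NSPCs. With lists of equal length, an alternative added for the markers after the data were seen, reactivated NSPCs had 2 of 4 neuronal, 0 of 3 oligodendrocyte, 0 of 4 microglial and 1 of 4 endothelial markers, as activated NSPCs did. The endothelial marker was Kdr, with 9.58 and 7.30 in reactivated NSPCs, 4.91 and 3.99 in activated NSPCs and a single quiescent peak of 2.60. Relative to the median gene, the reactivated values of the 5 NSPC markers had a median difference of -0.42 on the log2 scale against both activated and quiescent NSPCs. Sox2 (-0.99, limma adjusted p = 0.00665) and Vim (-0.51, limma adjusted p = 0.0311) were called lower in reactivated than in quiescent NSPCs, and Vim (-0.55, limma adjusted p = 0.0385) lower than in activated NSPCs. The deposited values of Vim were 8.28 and 9.19 in reactivated against 7.34 and 8.37 in quiescent NSPCs, so its direction rests on the centring. The part of other cells in the results, those on reactivated NSPCs included, was not tested.

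A promoter was called open in a state if a peak of both of its libraries lay within 1 kb of any annotated start of the gene. By this rule 85 of 94 members (90.4%; exact binomial 95% interval 82.6 to 95.5) were open in quiescent NSPCs, 85 in activated NSPCs and 89 (94.7%; 88.0 to 98.3) in reactivated NSPCs. With each list limited to the 47037 peaks of smallest p, the length of the shortest, the counts were 85, 85 and 84, so the higher count in reactivated NSPCs was not kept. Of all protein-coding autosomal genes, 56.9% were open in quiescent, 57.3% in activated and 66.4% in reactivated NSPCs. Of the members, 84 (89.4%) had peaks in all 6 libraries, as did 54.5% of all genes. These 84 members also had H3K4me3 in both states, which 53.0% of all genes had together with 6 ATAC-seq peaks. Between quiescent and activated NSPCs, no member had a peak in both quiescent libraries and neither activated one (0.78% of all genes had this pattern), and 1 member had the opposite pattern (0.948% of all genes). The intervals cover counting error over genes only, and in these bulk libraries fewer cells with an open promoter and less opening in each cell cannot be told apart.

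By complex, all 34 subunits of complex I, all 4 of complex II, all 8 of complex III and all 16 genes of complex V were open in every library. So were Cox7a2l, which joins complexes III and IV, and Atp5s, a factor of the ATP synthase. Complex IV was the exception, with 10 of 18 genes open in all 6 libraries. Of its other 8, 6 are on the list of isoforms known to be restricted to muscle, lung or testis, of which Cox6b2 alone was open throughout. Without this list of 7 genes, 83 of 87 members (95.4%) had a peak in all 6 ATAC-seq libraries and 86 of 87 (98.9%) had H3K4me3 in both states. Of the 7 genes left out, 1 had peaks in all 6 ATAC-seq libraries and 1 had H3K4me3 in both states, so both shares were bound to rise. The list was chosen with earlier results of these data known.

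**Figure D1:**
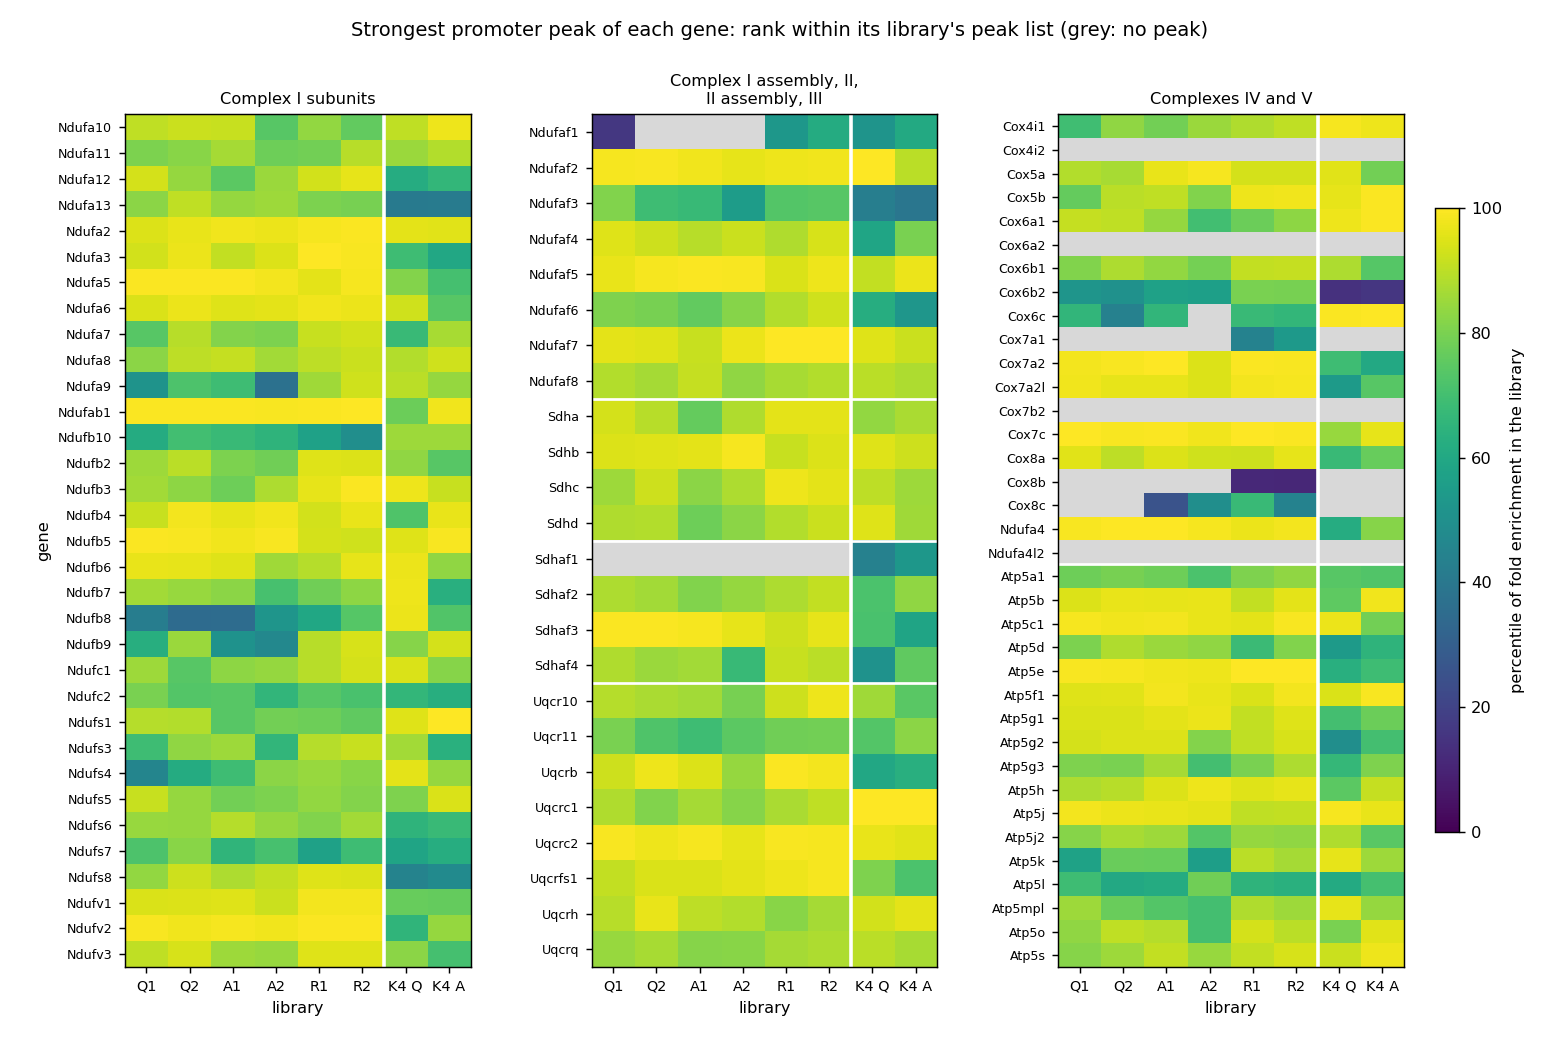
Rank of the strongest promoter peak of each of 93 genes in 8 libraries, by complex (columns Q1 to R2: quiescent, activated and reactivated ATAC-seq libraries 1 and 2; K4 Q and K4 A: H3K4me3 in quiescent and activated NSPCs). Colour gives the percentile of the fold enrichment among all peaks of that library and grey marks no peak. Cox7a2l is not drawn apart from complex IV nor Atp5s from complex V. Grey cells are at 6 of the 7 tissue-restricted genes of complex IV (not Cox6b2) and at Ndufa4l2, Sdhaf1, Ndufaf1 and Cox6c.

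Of the tissue-restricted isoforms, Cox4i2 (lung), Cox6a2 (heart and skeletal muscle) and Cox7b2 (testis) had no ATAC-seq or H3K4me3 peak in any library. Cox7a1 and Cox8b, the muscle isoforms of their subunits, had an ATAC-seq peak in the reactivated libraries alone, with no H3K4me3 peak in quiescent or activated NSPCs. At Cox7a1 (chr7:30184144-30186078, plus strand) the fold enrichment was 4.47 and 5.19 in the 2 reactivated libraries. At Cox8b (chr7:140898945-140900446, minus strand) it was 2.98 and 3.04. The Cox7a1 peaks stood near the middle of their lists, at percentiles 44.2 and 54.1, and the Cox8b peaks ranked low, at 11.7 and 11.0. Such a pattern, open in both reactivated libraries and in no other, held for 2 of 94 members against 3.58% of all genes. The reactivated lists were the longest. Cox8c, the testis isoform, had peaks of 3.45 and 4.42 in activated and 6.54 and 4.52 in reactivated NSPCs and none in quiescent NSPCs. Its summits lay between 872 and 938 bp downstream of the start of a gene that spans chr12:102899316-102900526, so these peaks were near its end rather than at its start. Cox6b2, the testis isoform of subunit VIb, was open in all 6 libraries, with values of 4.22 and 3.52 in quiescent NSPCs, 5.06 and 4.85 in activated NSPCs and 8.64 and 8.59 in reactivated NSPCs. It had the weakest and narrowest H3K4me3 peak of the members, 4.61 in quiescent and 5.98 in activated NSPCs.

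Stretches just upstream of the 2 muscle isoforms are given, since their peaks in reactivated NSPCs lay at these starts, 5′ to 3′ in the direction of the gene, with exact CCAAT or ATTGG letters in capitals (RefSeq, GRCm38.p6). The Cox7a1 stretch is chr7:30183944-30184143 on the plus strand, from base -227 to -28 of the RefSeq start, and the Cox8b stretch is chr7:140900447-140900646 on the minus strand, from -200 to -1. The Cox7a1 summits were 9 and 13 bp upstream of that start and those of Cox8b 17 and 46 bp upstream, so the Cox7a1 summits lie outside the printed stretch and those of Cox8b within it. The printed bases hold no NRF1, ETS, YY1 or SP letters as defined for the promoter search.
Cox7a1: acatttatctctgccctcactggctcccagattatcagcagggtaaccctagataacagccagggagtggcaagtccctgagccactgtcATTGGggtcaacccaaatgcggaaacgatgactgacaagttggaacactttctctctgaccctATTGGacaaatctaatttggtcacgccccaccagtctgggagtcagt
Cox8b: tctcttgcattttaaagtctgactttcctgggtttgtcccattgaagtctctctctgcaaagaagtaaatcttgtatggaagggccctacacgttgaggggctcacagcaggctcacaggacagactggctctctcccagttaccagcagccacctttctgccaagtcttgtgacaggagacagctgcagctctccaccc

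Outside complex IV, 2 members lacked a peak in at least 1 library, Ndufaf1 and Sdhaf1. Ndufaf1, a factor needed to assemble complex I, had a peak of 2.89 in the first quiescent library, none in the second quiescent or either activated library, and peaks of 5.07 and 5.85 in the reactivated libraries. Its H3K4me3 was nevertheless 29.3 in quiescent and 33.8 in activated NSPCs, so the mark was present where ATAC-seq peaks were missing. The quiescent peak had a −log10 q of 3.32, near the limit of calling. The stretch of 200 bp before its RefSeq start, chr2:119662835-119663034 on the minus strand, is shown with its CCGGAAG (ETS) letters in capitals at base -18, and the reactivated summits lay 9 and 10 bp upstream of the start.
Ndufaf1: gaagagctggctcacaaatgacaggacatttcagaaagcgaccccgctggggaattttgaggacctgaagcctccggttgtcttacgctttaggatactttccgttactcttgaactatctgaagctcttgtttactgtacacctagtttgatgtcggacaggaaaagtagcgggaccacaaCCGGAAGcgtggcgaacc

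Cox6c, a ubiquitous subunit of complex IV at chr15:35925886-35938246, lacked a peak in the second activated library alone. Its ATAC-seq values were 5.13 and 3.29 in quiescent, 5.84 in the first activated and 6.54 and 6.38 in reactivated NSPCs. These peaks stood at percentiles from 44.1 to 67.6 of their lists, with summits 55 to 61 bp downstream of the start in quiescent and activated NSPCs and 289 and 292 bp downstream in reactivated NSPCs, so the values come from different positions. Its H3K4me3 was among the strongest of all genes, at 69.0 (percentile 99.5) in quiescent and 70.5 (percentile 99.9) in activated NSPCs. Sdhaf1, an assembly factor of complex II, and Ndufa4l2, a hypoxia-induced relative of Ndufa4, had no ATAC-seq peak within 1 kb of their GENCODE start, but both depended on which start was used. The RefSeq start of Sdhaf1 lies 1520 bp downstream of the GENCODE start, and there the ATAC-seq peaks were 13.4 and 12.7 in quiescent NSPCs, 14.7 and 12.9 in activated NSPCs and 14.2 and 17.8 in reactivated NSPCs, all at percentile 95.4 or above. H3K4me3 within 1 kb of either start of Sdhaf1 was 24.0 in quiescent and 29.8 in activated NSPCs. The RefSeq gene of Ndufa4l2 begins 5693 bp upstream of the GENCODE start, with peaks between 3.76 and 6.56 in the 6 libraries and H3K4me3 of 12.0 and 8.33. With the RefSeq starts added, 86 of 94 members had a peak in all 6 libraries, and Ndufaf1, Cox6c and 6 tissue-restricted isoforms remained. This alternative was chosen after the data were seen.

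Many of these genes start close to another gene. Another protein-coding gene began within 1 kb of a start of 36 of 94 members (38.3%), compared with 14.8% of all genes. In 35 of the 36 at least 1 such neighbour was on the opposite strand, as in 2634 of the 3078 among all genes. In the second reactivated library the strongest peak of 32 members was also the strongest of a neighbour, so its value belongs to both genes. Such sharing was not counted over all genes. Ndufs1, a core subunit of complex I, starts 3 bp from the translation factor gene Eef1b2, Ndufb5 20 bp from Mrpl47 of the mitochondrial ribosome, and Ndufs6 29 bp from Mrpl36. Sdhd, a membrane anchor of complex II, starts 98 bp from Timm8b of the mitochondrial import machinery. Atp5j, which codes for coupling factor 6 of the ATP synthase, starts 31 bp from Gabpa, the DNA-binding subunit of GABP, itself a regulator of OXPHOS genes. Atp5j and Gabpa shared 1 peak and have the same values below.

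The median open OXPHOS promoter was at the upper end of each list, but single members ranked lower, down to percentile 11.0 at Cox8b in the second reactivated library. The median member peak stood at percentile 84.3 of the second activated library, the lowest, to 92.9 of the second reactivated library, and the median promoter peak of all genes at 82.3 to 88.9. The reads piled up at member summits had a median from 61 to 149.5 per library, which is a counting error of 8.18% to 12.8% at the median peak. Means over the 6 libraries were taken on the log2 scale, for the members with a peak in all 6 alone. In complex I this mean fold enrichment ran from 4.50 at Ndufb8 to 16.7 at Ndufab1, the mitochondrial acyl carrier protein. In complex I assembly it ran from 6.10 at Ndufaf3 to 14.3 at Ndufaf5. In complex II it ran from 9.04 at Sdhd to 12.3 at Sdhb, the iron-sulphur subunit, and among the assembly factors from 8.73 at Sdhaf4 to 14.1 at Sdhaf3. In complex III it ran from 6.76 at Uqcr11 to 14.7 at Uqcrc2, a core subunit. In complex IV it ran from 5.48 at Cox6b2 to 17.0 at Cox7c, and in complex V from 5.62 at Atp5l to 16.1 at Atp5e, the epsilon subunit. The complexes overlapped widely, with medians between 8.77 (complex I) and 10.7 (complex I assembly), and these are enrichments over background, not levels of product.

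The order of the members was similar in quiescent and activated NSPCs. Across the 84 members with a peak in every library, Pearson's r of log2 fold enrichment was 0.87 between the 2 quiescent libraries and 0.84 between the 2 activated ones, and between 0.81 and 0.90 for the 4 pairs that cross these states. It was 0.93 between the 2 reactivated libraries and between 0.64 and 0.72 for pairs of a reactivated and a quiescent or activated library. These are correlations across genes that share base composition and annotation, and serve as a description.

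Differences between states were tested by limma on log2 fold enrichment over the 11316 genes with a promoter peak in all 6 libraries, after the median of each library was set equal, in 1 fit over all libraries. The 3 comparisons share libraries. Between quiescent and activated NSPCs, no OXPHOS promoter passed an adjusted p of 0.05 in either direction, out of 84 tested. Over all genes 0.557% were higher and 1.07% lower in quiescent NSPCs, so 0 of 84 is near the background. At an unadjusted p below 0.05 there were 4 members higher and 3 lower, 7 of 84, while 17.4% of all genes were below it. The median member difference, quiescent minus activated, was 0.09 on the log2 scale (quartiles -0.07 and 0.23; median SE 0.16) and the median over all genes was 0.03. By complex the medians were 0.08 in complex I, 0.19 in complex II, 0.11 in complex III, 0.00 in complex IV and 0.01 in complex V.

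The members with the largest differences between these states are given with all values. Ndufs4, an accessory subunit of complex I (chr13:114287795-114388258), had 3.94 and 4.13 in quiescent against 6.23 and 7.70 in activated NSPCs, a difference of -0.62 ± 0.18 (SE; limma adjusted p = 0.122). Cox5a, a subunit of complex IV (chr9:57521274-57532426), had 8.54 and 7.49 in quiescent against 13.3 and 13.1 in activated NSPCs, a difference of -0.57 ± 0.15 (limma adjusted p = 0.0847). Atp5h, of the peripheral stalk of complex V (chr11:115415689-115419962), had 8.25 and 8.16 in quiescent against 12.2 and 12.4 in activated NSPCs, a difference of -0.42 ± 0.15 (limma adjusted p = 0.169). In these 3 genes both quiescent libraries were below both activated ones, but the differences did not pass the test over all genes. Without centring, Ndufs4 (-0.78, limma adjusted p = 0.0307) and Cox5a (-0.73, limma adjusted p = 0.0364) were called lower in quiescent NSPCs, 2 of 84 members against 2.79% of all genes. Ndufb9, an accessory subunit of complex I (chr15:58933756-58939488), had 4.86 and 7.0 in quiescent against 4.64 and 4.28 in activated NSPCs, a difference of 0.55 ± 0.19 (limma adjusted p = 0.167). Cox6a1, the widely expressed form of its subunit (chr5:115345642-115348981), had 9.23 and 8.56 in quiescent against 8.80 and 5.99 in activated NSPCs, a difference of 0.45 ± 0.15 (limma adjusted p = 0.167). In the deposited values the states overlapped at Cox6a1, and after centring they did not. Single libraries moved these differences: without the second activated library that of Ndufs4 was -0.35 and that of Cox6a1 0.29, and Ndufb9 had 0.82 without the first and 0.27 without the second quiescent library.

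**Figure D2:**
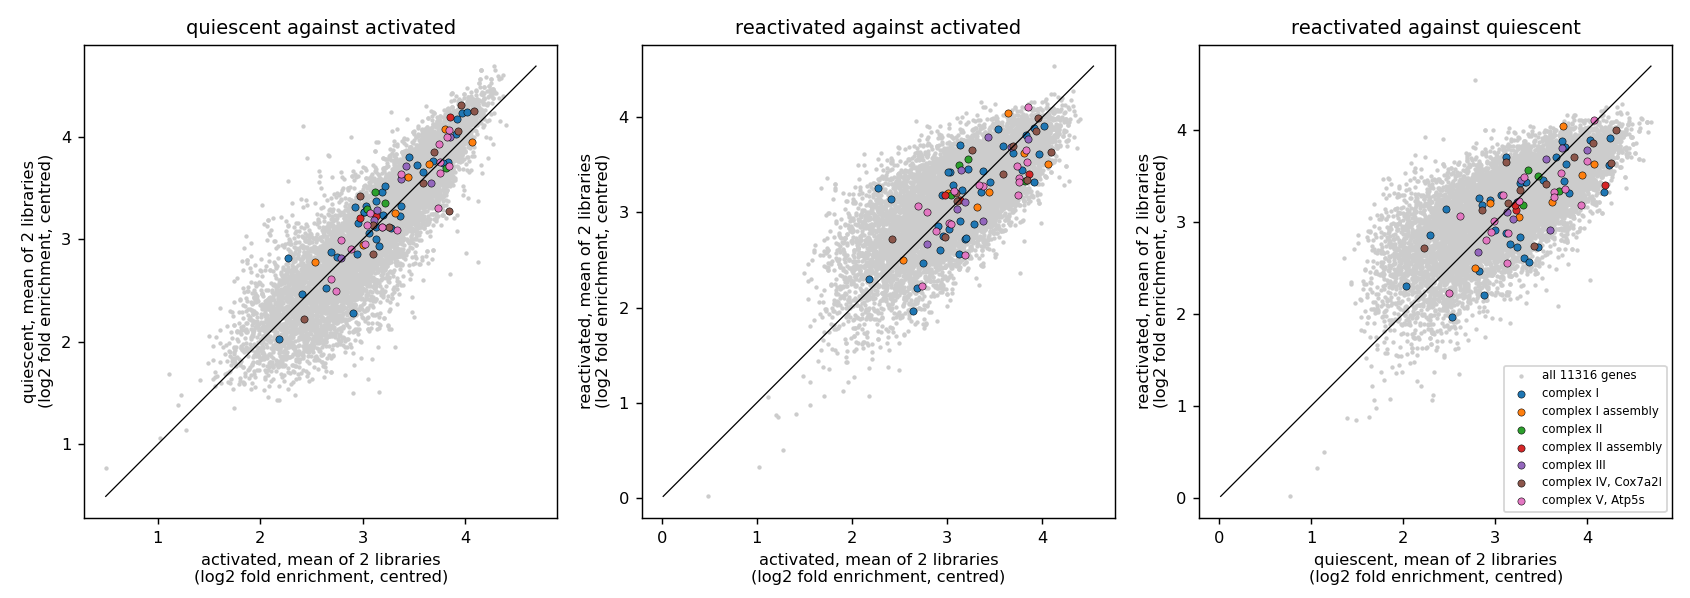
Promoter ATAC-seq in each pair of states for 11316 genes (grey) and 84 OXPHOS genes (coloured by complex). Axes give the mean of 2 libraries of log2 fold enrichment after centring, and the line marks equality. In the quiescent and activated pair the OXPHOS genes lie along the line, none past the test. In both reactivated panels the cloud of all genes is flatter than the line, and without centring no OXPHOS gene was lower in reactivated NSPCs by the test.

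Comparisons with reactivated NSPCs depended on the scale of these libraries. As deposited, the median log2 fold enrichment over the tested genes was 3.57 and 3.66 in the reactivated libraries, 2.97 and 2.94 for quiescent NSPCs and 3.23 and 2.99 for activated NSPCs. Without centring, the median of all genes was therefore 0.48 higher than in activated and 0.62 higher than in quiescent NSPCs, and 37 of 84 members were called higher in reactivated than in activated NSPCs (49.5% of all genes) and 49 of 84 higher than in quiescent NSPCs (66.5% of all genes), with none lower (0.124% and 0.15% of all genes). Differences below are relative to the median gene. They also varied with level: over all genes the median difference, reactivated minus quiescent, was 0.24 in the 2829 genes of lowest mean enrichment and -0.26 in the 2828 of highest, which held 27 of the 84 members (median -0.29). Whether the cells or the libraries differ in this way cannot be told apart.

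Against activated NSPCs, 2 members were higher in reactivated NSPCs (2.38%; 7.02% of all genes) and 6 lower (7.14%; 5.36% of all genes). Under quantile normalization these counts were 5 higher (8.49% of all genes) and 12 lower (8.68%), and the 8 calls were among them. Both that rose were accessory subunits of complex I. Ndufb9 had 4.64 and 4.28 in activated and 11.3 and 13.9 in reactivated NSPCs, and rose by 0.99 ± 0.19 on the centred log2 scale (limma adjusted p = 0.0134). Ndufa9, at the joint of the 2 arms of complex I (chr6:126821721-126849136), had 6.23 and 3.85 in activated and 10.1 and 13.2 in reactivated NSPCs, and rose by 0.73 ± 0.19 (limma adjusted p = 0.0337). Both were also called without centring, and their reactivated values lay above all 4 others.

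Those that fell included Ndufb10 and Ndufb5 of complex I, its assembly factor Ndufaf5, and Atp5d and Atp5j of the ATP synthase. The 6 fell relative to the median gene, by 0.56 to 0.68 (limma adjusted p from 0.0194 to 0.0416), and none was called without centring. Ndufb10 (chr17:24722060-24724478) had 6.09 and 5.48 in activated and 5.45 and 4.82 in reactivated NSPCs, a difference of -0.68 ± 0.15. Atp5d, the delta subunit, had 9.01 and 7.85 in activated and 6.59 and 9.00 in reactivated NSPCs, a difference of -0.63 ± 0.16. In the deposited values the states overlapped at Atp5d, and at Ndufb10 they were set apart by a narrow gap. All these calls were lost without the second activated library or either reactivated one, and without the first activated library Ndufa9, Ndufb10 and Ndufb5 alone held. Calls over all genes also became fewer in each of these fits, which leave a state with a single library.

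Against quiescent NSPCs, 5 members were higher in reactivated NSPCs (5.95%; 12.9% of all genes) and 15 lower (17.9%; 13.5% of all genes), again relative to the median gene. The 15 were 8 subunits of complex I with the assembly factor Ndufaf2, 1 assembly factor of complex II, 1 subunit of complex III, 2 of complex IV and 2 of complex V, and none of them was called lower without centring. Ndufb5, an accessory subunit (chr3:32736990-32751566), had 15.3 and 14.6 in quiescent against 13.1 and 13.1 in reactivated NSPCs, a difference of -0.85 ± 0.14 (limma adjusted p = 0.00407). It was called lower with any 1 of the 6 libraries left out. Sdhaf3, which helps to mature the iron-sulphur subunit of complex II (chr6:6956004-7042979), had 15.3 and 15.03 in quiescent against 12.6 and 15.2 in reactivated NSPCs, a difference of -0.79 ± 0.14 (limma adjusted p = 0.00607). Deposited values of Sdhaf3 overlapped between the states, and its call rests on the centring.

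Atp5j and Gabpa, through their shared peak, had 13.3 and 12.0 in quiescent against 11.7 and 12.2 in reactivated NSPCs, a difference of -0.74 ± 0.14 (limma adjusted p = 0.00635). Ndufa10, an accessory subunit of complex I, had 9.10 and 9.17 in quiescent against 9.53 and 7.86 in reactivated NSPCs, a difference of -0.74 ± 0.20 (limma adjusted p = 0.0211). A further 10 fell by 0.45 to 0.71, namely Ndufs1, Uqcrh, Cox6a1, Ndufs7, Ndufa5, Ndufa4, Atp5d, Ndufb10, Ndufa13 and Ndufaf2. These 10 too fell relative to the median gene. Over all libraries the summits spanned 318 bp at Uqcrh and 359 bp at Ndufs7, so their values come from different positions. Without centring the differences of Ndufa5, Ndufa4, Atp5d, Ndufb10, Ndufa13 and Ndufaf2 turned positive, at 0.040 to 0.22. At Ndufaf2 the deposited values were 13.8 and 14.1 in quiescent against 15.7 and 16.7 in reactivated NSPCs. Under quantile normalization Ndufa5, Ndufa4 and Ndufaf2 were not called.

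The 5 that rose against quiescent NSPCs were Ndufa9, Ndufb3 and Ndufs4 of complex I and Cox5b and Cox6b2 of complex IV, and all 5 were also called without centring. Under quantile normalization 3 members were higher (10.4% of all genes) and 15 lower (11.5%) in this comparison. Ndufb3 and Cox5b then kept their calls, and Ndufa9 (0.56, limma adjusted p = 0.0648), Ndufs4 (0.39, limma adjusted p = 0.157) and Cox6b2 (0.28, limma adjusted p = 0.187) did not. Ndufa9 had 4.21 and 4.97 in quiescent NSPCs and rose by 0.67 ± 0.19 (limma adjusted p = 0.0262). Ndufs4 rose by 0.57 ± 0.18 (limma adjusted p = 0.0422), from the quiescent values above to 9.77 and 9.23. Cox5b had 6.21 and 8.32 in quiescent against 15.9 and 17.0 in reactivated NSPCs, and rose by 0.53 ± 0.18 (limma adjusted p = 0.0462). It was not called with the replicate block (limma adjusted p = 0.0569), in a fit on the 4 libraries of this comparison (limma adjusted p = 0.0506) or without the first quiescent library (0.30, limma adjusted p = 0.253). In each of these 3 genes the reactivated libraries lay above both quiescent ones. Of all calls in this comparison, higher and lower, Ndufb5 alone held without the first reactivated library, and Ndufb5 and Sdhaf3 without the second. More held without the first or the second quiescent library, but not all. Calls over all genes also became fewer in each of these fits, where a state has a single library.

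**Figure D3:**
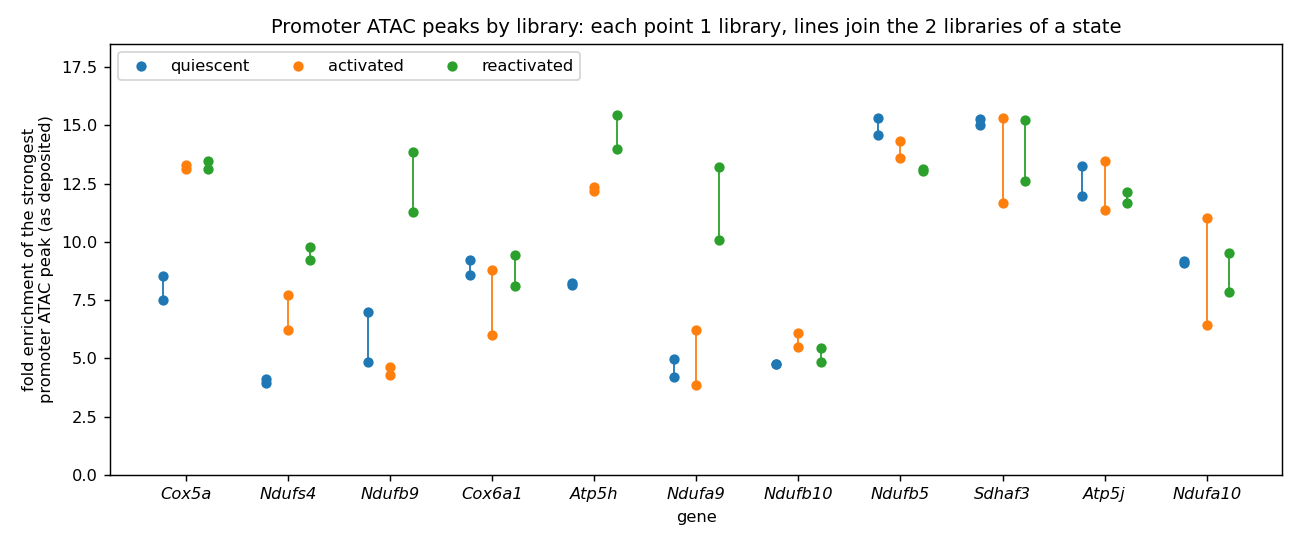
Deposited fold enrichment of the strongest promoter ATAC-seq peak at 11 OXPHOS genes in each library, before centring (vertical axis from 0; points are libraries, lines join the 2 libraries of a state). Cox5a, Ndufs4 and Atp5h are lower in quiescent than in activated NSPCs without passing the test. Ndufb9, Ndufa9, Ndufs4 and Atp5h are highest in reactivated NSPCs, whose deposited medians over all tested genes were also higher. Differences called lower in reactivated NSPCs, such as Ndufb5, are small here and were called relative to the median gene.

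H3K4me3 was present at 87 of 94 members in both quiescent and activated NSPCs (92.6%), and at 62.3% and 61.1% of all genes. The same 87 genes had it in both states. Its median fold enrichment at members was 46.8 in quiescent and 44.0 in activated NSPCs, against 38.0 and 35.8 over all genes with a peak. The ratio of quiescent to activated had a median of 1.01 over the 87 members, of which 44 (50.6%) were above 1, and a median of 1.08 over 12672 genes, of which 67.2% were above 1. With 1 library per state there is no replicate check and no test. Past 1.5-fold, 2 members were higher in quiescent NSPCs (2.30%; 5.61% of all genes) and 0 were lower (0.797% of all genes). These were Ndufb7, 60.6 against 34.8 (ratio 1.74), and Ndufb8, 60.4 against 39.3 (ratio 1.54), both accessory subunits of complex I, followed by Ndufaf2, 70.5 against 48.4 (ratio 1.46). At the other end were Sdhaf4, 29.1 against 40.4 (ratio 0.718), Atp5b, the catalytic beta subunit of ATP synthase, 42.2 against 58.0 (ratio 0.728), and Ndufb4, 40.6 against 55.8 (ratio 0.728). Their ATAC-seq values were not called different, and in Ndufb7 these were 7.88 and 6.90 in quiescent against 8.46 and 6.04 in activated NSPCs.

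**Figure D4:**
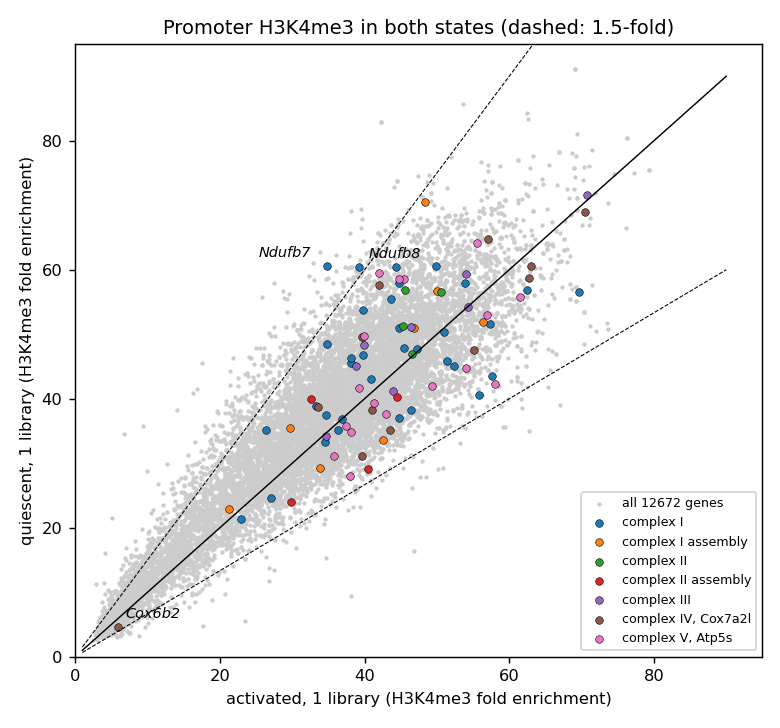
H3K4me3 fold enrichment at promoters in 1 quiescent (vertical) and 1 activated (horizontal) library, for 12672 genes (grey) and 87 OXPHOS genes (coloured). The solid line marks equality and the dashed lines a ratio of 1.5 either way. Ndufb7 and Ndufb8 lie past the upper dashed line and Cox6b2 near the origin.

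The width of the H3K4me3 peak had a median of 2376 bp in quiescent and 2200 bp in activated NSPCs at members, and 2182 and 2050.5 bp over all genes. Ndufb10 had the widest, 5835 and 5953 bp, and Cox6b2 the narrowest, 1139 and 1201 bp. Across the 84 members with all peaks, Pearson's r between mean ATAC-seq and H3K4me3 enrichment was 0.17 in quiescent and 0.29 in activated NSPCs and Spearman's rho 0.03 and 0.21, given as a description across genes. Uqcrc1, a core subunit of complex III, had the highest H3K4me3 of the members in both states (71.7 and 70.8) with ATAC-seq values from 6.19 to 12.0.

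ATAC-seq summits at members were just upstream of the start. The median position, depending on the library, was 21 to 27 bp upstream, and 83.5% to 88.8% of member summits lay within 100 bp of a start, compared with 65.9% to 68.6% over all genes. Across the 6 libraries the summits of a member spanned a median of 35.5 bp, and 73 of 84 members kept them within 100 bp. The widest span was 572 bp at Sdhaf2, an assembly factor of complex II.

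Promoter sequences from 250 bases before to 50 after the start were found in RefSeq (GRCm38.p6) for 75 of 94 members and for 15087 protein-coding autosomal genes. Exact letters were searched on both strands. GCGCATGCG, for NRF1, was in 10 of 75 members (13.3%) and in 2.61% of all promoters. CCGGAAG, for ETS factors such as GABP, was in 20 (26.7%) and 12.8%. AAGATGGCG, for YY1, was in 7 (9.33%) and 2.07%. GGGCGG, for SP factors, was in 36 (48.0%) and 49.3%, CCAAT, for NFY, in 32 (42.7%) and 38.5%, and TATAAA in 8 (10.7%) and 12.8%. The share of GC was similar, with a median of 58.3% in members and 57.3% in all. The median number of CpG was higher in members, 20 against 15 in all. The members with NRF1 letters were Atp5g2, Atp5k, Atp5l, Cox6a1, Ndufa11, Ndufa8, Ndufaf4, Ndufaf5, Uqcr11 and Uqcrc1. Those with YY1 letters were Atp5j2, Ndufa9, Ndufaf8, Ndufc1, Ndufs4, Ndufs6 and Ndufs7, in all of which the letters began 10 to 35 bases after the start. A match is a description of the letters and not a site of binding, and NRF1 letters that read nearly the same on both strands were counted once per promoter.

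**Figure D5:**
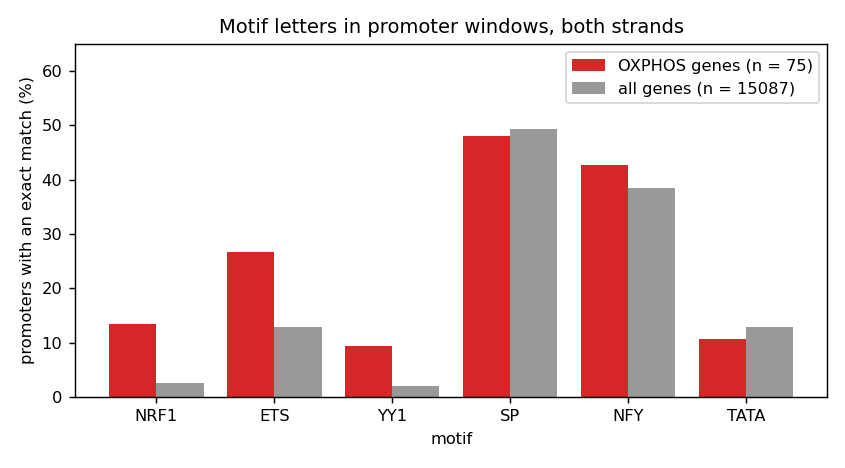
Share of promoters with an exact match to each motif, for 75 OXPHOS genes and 15087 genes (bars from 0, no test). NRF1, ETS and YY1 letters were more frequent in the OXPHOS genes, and SP, NFY and TATA letters had similar shares.

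Examples are shown for an NRF1 match upstream, and for Atp5b with its repeated CCAAT letters, with all searched motifs in capitals on either strand. Ndufaf4, an assembly factor of complex I, is from base -200 to -1 (chr4:24897883-24898082, plus strand), Cox6a1 from -171 to -24 (chr5:115348982-115349129, minus strand) and Atp5b from -234 to -35 (chr10:128083073-128083272, plus strand). At Ndufaf4 the NRF1 letters begin at base -113, and the summits of the 6 libraries were 48 to 101 bp upstream of the start. At Cox6a1 they begin at -162, and the summits were 39 to 102 bp upstream. At Atp5b the summits were 61 to 91 bp upstream, beside the CCAAT letters that begin at -75.
Ndufaf4: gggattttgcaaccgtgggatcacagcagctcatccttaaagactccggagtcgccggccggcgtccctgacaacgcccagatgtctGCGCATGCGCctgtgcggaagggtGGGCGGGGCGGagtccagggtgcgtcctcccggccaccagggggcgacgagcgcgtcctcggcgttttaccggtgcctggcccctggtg
Cox6a1: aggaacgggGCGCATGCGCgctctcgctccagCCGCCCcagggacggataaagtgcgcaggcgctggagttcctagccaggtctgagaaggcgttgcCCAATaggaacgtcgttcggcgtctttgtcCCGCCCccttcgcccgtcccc
Atp5b: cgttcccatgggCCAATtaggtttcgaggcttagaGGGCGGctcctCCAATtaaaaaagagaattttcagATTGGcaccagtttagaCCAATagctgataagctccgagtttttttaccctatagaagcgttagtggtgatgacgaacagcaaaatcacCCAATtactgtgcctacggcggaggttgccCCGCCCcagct

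Ndufaf4 itself had 11.0 and 9.32 in quiescent NSPCs, 10.2 and 9.86 in activated NSPCs and 10.8 and 13.7 in reactivated NSPCs, with overlap between quiescent and activated NSPCs. Atp5b had 10.8 and 11.6 in quiescent NSPCs, 13.3 and 11.8 in activated NSPCs and 12.0 and 15.2 in reactivated NSPCs. Neither was called in any comparison.

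Other genes of OXPHOS and of glycolysis were examined as lists. Peaks in every ATAC-seq library, which 54.5% of all genes had, stood at 10 of 11 other subunits and carriers (Cyct, the testis cytochrome c, was the exception), 34 of 36 further assembly factors, all 12 regulators of OXPHOS genes and mitochondrial DNA, and 15 of 16 glycolytic genes. Between quiescent and activated NSPCs none of those tested in these 4 lists was called by limma, and at an unadjusted p below 0.05 there were 0 subunits and carriers, 3 of 34 assembly factors, 3 of 12 regulators and 1 of 15 glycolytic genes, against 17.4% of all genes. Against quiescent NSPCs, the reactivated cells had 7 higher and 6 lower of 34 assembly factors, 2 higher and 1 lower of 10 subunits and carriers, 4 lower of 12 regulators (Gabpa, Esrra, Yy1 and Tfb2m) and 2 lower of 15 glycolytic genes (Gapdh and Pkm), relative to the median gene. Over all genes 12.9% were higher and 13.5% lower in this comparison. Among those lower, Slc25a3, Esrra, Tfb2m, Foxred1, Tmem126b, Cox14 and Cox20 had higher deposited values in both reactivated than in both quiescent libraries. The direction of these genes rests on the centring. Deposited values of Gabpa, Yy1, Gapdh, Bcs1l and Cox18 overlapped between the states, and those of Pkm were lower in reactivated NSPCs. Gpd2, the mitochondrial glycerol-3-phosphate dehydrogenase, had 6.18 and 4.66 in quiescent NSPCs, 4.51 and 5.99 in activated NSPCs and 17.6 and 15.9 in reactivated NSPCs, and rose against activated NSPCs by 1.18 ± 0.22 (limma adjusted p = 0.0124).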

How the data were processed

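Peak lists of 6 ATAC-seq and 2 H3K4me3 libraries were used. The authors trimmed reads (Trim Galore 0.4.0), aligned them to mm10 (Bowtie2 2.2.5), removed duplicates (Picard 1.88, SAMtools 1.3.1) and called peaks per library with MACS (FDR 0.05), the reactivated libraries after a reduction of their reads, and called H3K4me3 as broad peaks against input (broad cutoff 0.01). The deposited fold enrichment is the authors' ratio of pileup to background within a library, not normalized between libraries, and their deposited −log10 p and q values grow with depth. A merged or broad call can change which value a promoter gets. Pileups, recovered from fold and p, were at least 16 to 25 in called peaks over a background of 6.01 to 12.1, so weaker opening was not detectable.

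For each gene the strongest peak within 1 kb of any GENCODE M21 start was taken. Genes with a peak in all 6 libraries were compared with limma 3.58.1 (R 4.3.3) on median-centred log2 fold enrichment, with no pseudocount, two-sided, with Benjamini-Hochberg adjustment over 11316 genes. Data of 11316 genes were simulated for quiescent against activated NSPCs, with 200 of them changed by 1 on the log2 scale. Of these 200, 99.5% were recovered, with 4 false calls among the rest, at a single residual SD of 0.174. Recovery and false calls with noise that differs between genes, or with library scales that differ, were not tested. A difference of 1 is larger in size than that of any member in this comparison (-0.62 at Ndufs4 was the largest). Recovery of smaller differences was therefore not measured. Python 3.11.15, numpy 2.4.6, pandas 2.3.3, scipy 1.17.1 and matplotlib 3.10.9 were used. Input libraries were not analysed here.

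The named genes are the members without a peak in at least 1 library, those called (up to 10 per comparison, with the others only listed), the 5 with the largest difference per comparison, the highest and lowest per complex, the 3 largest and 3 smallest H3K4me3 ratios, and the tissue-restricted isoforms, except for 1 gene that is not reported here by name. Members, lists and rules were chosen with earlier results of these data known, and sequence examples after their motifs were seen. The alternatives were other windows, starts, scalings, filters, a replicate block and leaving out each library.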

Additional observations from a re-analysis of the deposited data

How the results depend on the processing

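Counts of open members kept within 1.5 times their value under each alternative: members with a peak in all 6 libraries numbered 80 to 86 under a minimum −log10 q of 10, lists of equal length, summits, a window of 2 kb, the gene 5′ end alone and added RefSeq starts, and members with H3K4me3 86 to 88. Between quiescent and activated NSPCs the count of members called was 0 in each setting with centring. Without centring, 2 of 84 members were lower in quiescent NSPCs (2.79% of all genes), 37 were higher (49.5% of all genes) and 0 lower in reactivated than in activated NSPCs, and 49 were higher (66.5% of all genes) and 0 lower in reactivated than in quiescent NSPCs. The reactivated minus quiescent difference then turned positive at Ndufa5 (0.040), Ndufa4 (0.042), Atp5d (0.093), Ndufb10 (0.11), Ndufa13 (0.15) and Ndufaf2 (0.22). Under quantile normalization 5 members were higher and 12 lower against activated NSPCs (8.49% and 8.68% of all genes), and 3 higher and 15 lower against quiescent NSPCs (10.4% and 11.5%), and 8 of 8 and 14 of 20 calls were kept. With each library left out in turn, members higher against activated NSPCs numbered 0 to 2 (0 to 7.92% of all genes) and lower 0 to 7 (0 to 5.83%), and members higher against quiescent NSPCs 0 to 5 (1.44% to 14.3%) and lower 1 to 16 (0.707% to 15.1%). A state left with 1 library is then assumed to vary like the others. The cause of these changes was not tested. Each fit leaves out a particular library and also has fewer libraries, and these cannot be told apart. With the replicate block, calls were 0, then 2 higher and 6 lower, then 4 higher and 15 lower for the 3 comparisons in the order given above. Deviations of same-numbered libraries from their state means were nearly uncorrelated across genes (r of 0.0018, 0.033 and -0.021). Whether these libraries were paired by culture or batch cannot be told from this. Depth limits what can be said of the 10 members without a peak in every library: their signal was below the calling limit or at another start.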
